A study of Mus musculus with 6 samples.

Results

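The genes described here encode enzymes and a transporter that keep ATP and the adenine nucleotides in balance. They are a named list of 10 mouse genes, taken by symbol with earlier results of these data known, out of 20672 genes counted in at least 1 tissue of the series: the creatine kinases Ckm, Ckb and Ckmt2, the creatine transporter Slc6a8, the creatine synthesis enzymes Gatm and Gamt, the AMP deaminases Ampd1, Ampd2 and Ampd3, and the adenylate kinase Ak1. All 10 were counted in all 3 tissues and all 10 passed the filter on low counts. RNA was sequenced from 2 libraries each of the infrapatellar fat pad (adipose tissue below the kneecap, inside the knee joint), the Achilles tendon and the rectus femoris, a fast thigh muscle, of female mice. The series' title concerns letrozole, an inhibitor of aromatase. Both fat pad titles name the drug, no tendon or muscle title does, and no label sets a treated against an untreated library within a tissue. If the name marks treatment, effects of drug and tissue cannot be told apart in the fat pad comparisons. Strain, age and the number of animals behind each library are not in the labels used here.

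Creatine kinases move a phosphate group between ATP and creatine, so that phosphocreatine can restore ATP at sites of rapid use. The muscle and brain forms work in the cytosol, and the mitochondrial forms load creatine with phosphate where ATP is made. Creatine itself is made by Gatm and then Gamt, mainly in kidney, pancreas and liver, and enters muscle through Slc6a8. Adenylate kinase turns a pair of ADP molecules into ATP and AMP, and AMP deaminase removes the AMP as IMP, the entry to the purine nucleotide cycle.

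The RefSeq promoter windows of the 3 creatine kinases are shown because these genes catalyse the same reaction and their transcripts did not have the same order across the tissues. Each window spans 250 bases before and 50 bases after the start site on GRCm38.p6, reads 5′ to 3′ on the gene's strand, and has in capitals the matches to the E-box written as CANNTG, to CCAAT, to the MEF2 motif, and to a TATA box written as TATANA, all searched on both strands.
Ckm, chr7:19410844-19411143, plus strand: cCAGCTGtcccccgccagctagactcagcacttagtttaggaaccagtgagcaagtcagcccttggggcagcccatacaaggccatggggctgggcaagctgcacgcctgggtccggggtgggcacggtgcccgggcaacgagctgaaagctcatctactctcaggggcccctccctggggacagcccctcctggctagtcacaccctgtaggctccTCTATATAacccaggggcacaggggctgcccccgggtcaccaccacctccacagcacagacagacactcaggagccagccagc
Ckb, chr12:111672289-111672588, minus strand: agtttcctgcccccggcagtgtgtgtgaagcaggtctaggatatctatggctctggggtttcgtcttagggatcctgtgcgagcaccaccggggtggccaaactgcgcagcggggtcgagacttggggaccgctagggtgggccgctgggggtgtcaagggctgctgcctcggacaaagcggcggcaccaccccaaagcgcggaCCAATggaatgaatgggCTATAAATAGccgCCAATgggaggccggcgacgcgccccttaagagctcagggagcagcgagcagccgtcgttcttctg
Ckmt2, chr13:91876836-91877135, minus strand: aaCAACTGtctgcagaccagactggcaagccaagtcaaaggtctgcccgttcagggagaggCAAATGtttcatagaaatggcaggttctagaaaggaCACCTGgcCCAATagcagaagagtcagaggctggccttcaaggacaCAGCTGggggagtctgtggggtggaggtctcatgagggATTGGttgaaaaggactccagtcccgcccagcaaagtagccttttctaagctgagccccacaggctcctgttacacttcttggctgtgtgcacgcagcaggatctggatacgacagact
The Ckm window held 1 E-box and 2 overlapping TATA matches between positions -33 and -26 from the start site. The Ckb window held 2 CCAAT matches and 1 TATA match, which lies inside its 1 MEF2 match at -29 to -20. The Ckmt2 window held 4 E-boxes and 2 CCAAT matches and no TATA match. Of all 32851 windows of this length, 72.3% held an E-box, 24.7% a TATA match, 37.4% CCAAT and 3.19% the MEF2 motif. A match is a run of letters and was not read as a bound site. A window was at hand for 8 of the 10 genes.

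Counts per library came to between 56216295 and 106319037. Levels are given as CPM (counts scaled to library size, after correction by the trimmed mean of M-values, TMM), always library 1 and then library 2 of a tissue. By their source and tissue labels all 6 libraries are fat pad, whereas the treatment label gives 3 tissues, which most markers followed. The summed level of 9 adipocyte markers was 73612 and 79098 CPM in the fat pad, 4603 and 1172 CPM in the tendon and 1358 and 1842 CPM in the muscle, and that of 7 tenocyte markers was 675 and 420 CPM in the fat pad, 18399 and 18935 CPM in the tendon and 2121 and 1440 CPM in the muscle. Both fat pad libraries were above all others for 7 of the 9 adipocyte markers, and both tendon libraries for all 7 tenocyte markers. Cfd made up most of the adipocyte sum, with 51767 and 58583 CPM in the fat pad. Of the other 2 adipocyte markers, Plin4 had 261 and 168 CPM in the fat pad, 648 and 215 CPM in the tendon and 617 and 453 CPM in the muscle, and Lep had 20.5 and 11.0 CPM in the fat pad, 65.7 and 6.20 CPM in the tendon and 1.27 and 1.98 CPM in the muscle. The tendon libraries also held muscle transcripts and differed in them, as given with the results below. The batch label is the same throughout, but titles carry a code that differs by tissue, so code and tissue cannot be told apart. Whether both libraries of a tissue are from different animals is not stated, and p-values thus measure a spread between libraries that may be technical. In such tissue RNA, fewer cells of a type and less RNA per cell cannot be told apart.

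The brain form was the main creatine kinase transcript of the fat pad, and the muscle form that of the tendon and muscle libraries. Ckm, the cytosolic kinase of striated muscle, had 15.7 and 18.2 CPM in the fat pad, 2961 and 7729 CPM in the tendon and 43405 and 34448 CPM in the muscle. The 3 tissues did not overlap. Against the muscle, the log2 fold change was -11.17 ± 0.86 in the fat pad (SE, n = 2 libraries each; adjusted p = 8.32e-05) and -2.86 ± 0.60 in the tendon (adjusted p = 0.0194), from the quasi-likelihood test of edgeR, Benjamini-Hochberg adjusted over all genes tested. For the fat pad over the tendon it was -8.30 ± 0.77 (adjusted p = 0.000188 by edgeR). An antisense gene shares 15.5% of the exonic bases of Ckm, and without a stated strand setting reads of the pair cannot be told apart.

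Ckb, the brain-type cytosolic kinase found in many tissues, was instead lowest in the muscle. It had 88.9 and 102 CPM in the fat pad, 93.4 and 88.0 CPM in the tendon and 20.8 and 24.8 CPM in the muscle. Both muscle libraries lay below all others, while the fat pad and tendon libraries overlapped. Ckb rose by a log2 fold change of 2.07 ± 0.19 in the fat pad (adjusted p = 0.000142 by edgeR) and by 1.99 ± 0.19 in the tendon (adjusted p = 0.00391 by edgeR) relative to the muscle. Between the fat pad and the tendon the log2 fold change was 0.073 ± 0.18 and did not pass the test (adjusted p = 0.746 by edgeR). Its sign there turned to -0.14 with total counts and, in the authors' TPM columns, to -0.75, which was called (adjusted p = 0.0237 by limma).

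Ckmt2, the mitochondrial creatine kinase of striated muscle, had 0.243 and 1.76 CPM in the fat pad, 645 and 481 CPM in the tendon and 1063 and 1241 CPM in the muscle. The fat pad libraries, with 22 and 198 counts, were far below the others and differed from each other by 7.24-fold (library 2 over library 1; 95% exact conditional binomial interval 4.65 to 11.8, counting error only). The log2 fold change was -10.15 ± 1.04 for the fat pad over the muscle (adjusted p = 0.000225) and -9.12 ± 1.00 for the fat pad over the tendon (adjusted p = 0.000335), by edgeR. The tendon over the muscle had -1.03 ± 0.70 and did not pass (adjusted p = 0.309 by edgeR), with a sign that turned in the authors' TPM columns, to 0.64. Beside the difference within the fat pad, the 6 brown and beige fat markers summed to 497 CPM in library 1 and 702 CPM in library 2. Ucp1, the uncoupling protein that defines brown fat, had 8 counts (0.0885 CPM) in fat pad library 1 and 164 (1.46 CPM) in library 2. This is a trace level, and muscle library 1 had 41 counts (1.00 CPM) and muscle library 2 had 0. Of these 6 markers 5 were higher in fat pad library 2, and Cidea and Cox8b made up most of the sum. Dio2 went the other way, with 264 counts in fat pad library 1 and 147 in library 2. The 11 fast muscle markers summed to 232 CPM and 210 CPM in the same fat pad libraries, and the 8 slow ones to 51.1 CPM and 45.2 CPM, most of it Atp2a2. Within the lists, 6 of 11 fast and 3 of 8 slow markers were higher in library 2, among them Myl3, a myosin light chain of slow muscle, with 15 counts in library 1 and 168 in library 2, and Myh2, a fast myosin, with 50 and 165. The part of these cell types in the Ckmt2 difference was not tested.

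**Figure D1:**
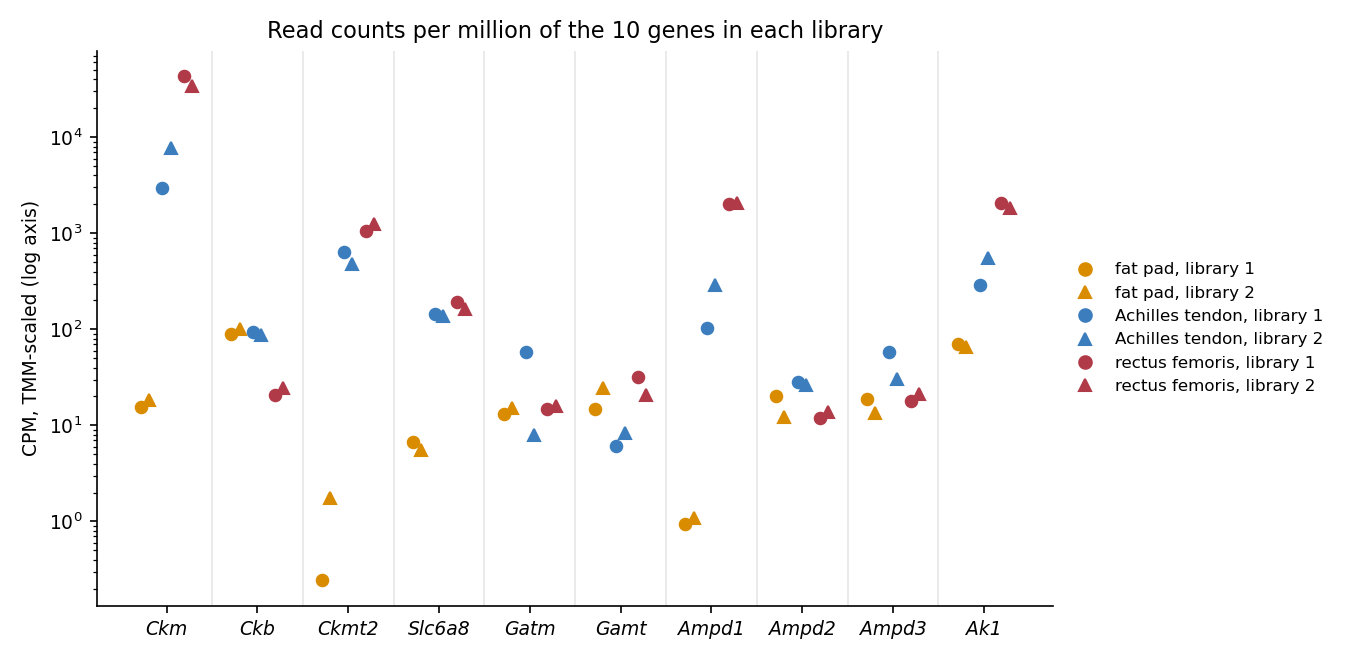
CPM of each of the 10 genes on a log axis, with 1 point per library (circle library 1, triangle library 2) and the tissues side by side in the order fat pad, Achilles tendon, rectus femoris. Ckm, Ckmt2, Slc6a8, Ampd1 and Ak1 sit lowest in the fat pad and highest in the muscle, Ckb sits lowest in the muscle, and Gatm spreads between 7.94 and 58.2 CPM within the tendon.

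Levels of different genes were compared per kilobase of exon. Within the summed level per kilobase of the 3 kinases, Ckb made up 84.7% and 82.6% in the fat pad, 2.18% and 1.01% in the tendon, and 0.0461% and 0.0675% in the muscle. Ckm made up 14.8% and 14.6% in the fat pad, 68.5% and 88.2% in the tendon, and 95.4% and 93.3% in the muscle. The Ckmt2 share was 0.452% and 2.78% in the fat pad, 29.3% and 10.8% in the tendon, and 4.58% and 6.59% in the muscle, so that it was highest in both tendon libraries. The ratio of Ckm to Ckb per kilobase was 0.175 and 0.177 in the fat pad, 31.5 and 87.3 in the tendon, and 2071 and 1383 in the muscle. The other mitochondrial form, Ckmt1, was below the filter, with 31 counts or fewer in each library.

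**Figure D2:**
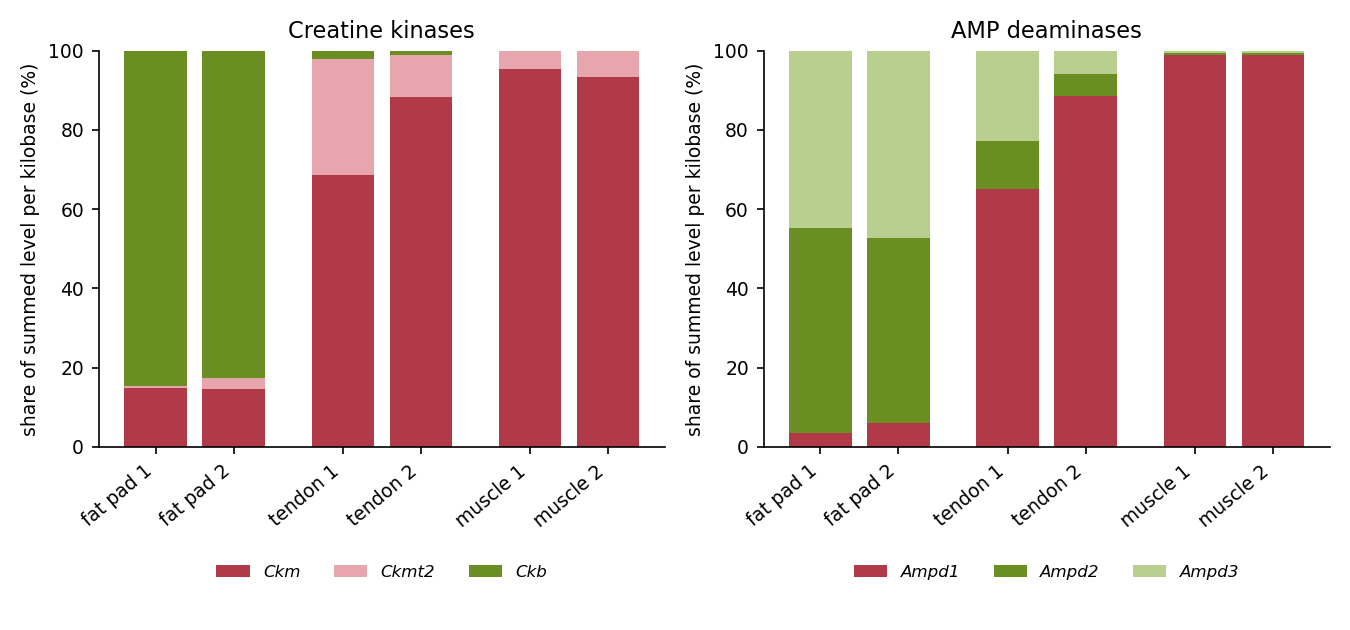
Share (%) of each creatine kinase (left) and each AMP deaminase (right) in the summed level per kilobase of its family, with 1 bar per library. Ckb fills over 80% of the creatine kinase bars of the fat pad and Ckm over 90% of those of the muscle, and Ampd1 takes 3.55% and 5.99% of the AMP deaminase level in the fat pad and 99.0% and 98.9% in the muscle.

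In counts of all 6 libraries, the creatine transporter followed the muscle kinases in being low in the fat pad, while neither synthesis enzyme was called lower there. For Gatm this differed in the authors' TPM columns. Slc6a8, which carries creatine into cells, had 6.77 and 5.60 CPM in the fat pad, 146 and 138 CPM in the tendon and 193 and 161 CPM in the muscle. The fat pad lay far below both other tissues, and the muscle lay above the tendon without overlap. Slc6a8 fell in the fat pad, with a log2 fold change of -4.84 ± 0.23 over the muscle (adjusted p = 3.95e-05) and -4.52 ± 0.23 over the tendon (adjusted p = 5.56e-05), by edgeR. The tendon over the muscle had -0.32 ± 0.20 (adjusted p = 0.266 by edgeR), and its sign turned with total counts, to 0.42.

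Gatm, which makes guanidinoacetate in the first step of creatine synthesis, had 13.2 and 15.3 CPM in the fat pad, 58.2 and 7.94 CPM in the tendon and 15.0 and 15.9 CPM in the muscle. The tendon libraries were the highest and the lowest of all 6. In counts Gatm passed no test: the log2 fold change was -0.12 ± 0.75 for the fat pad over the muscle (adjusted p = 0.903), -1.21 ± 0.76 for the fat pad over the tendon (adjusted p = 0.206) and 1.10 ± 0.76 for the tendon over the muscle (adjusted p = 0.313), by edgeR. Its counts in the tendon were 4514 in library 1 and 578 in library 2, and library 1 stood 7.32-fold above library 2 in CPM. Without tendon library 1 the fat pad over the tendon turned to 0.89 (adjusted p = 0.0354) and the tendon over the muscle to -0.97 (adjusted p = 0.0743), and without tendon library 2 they were -2.04 (adjusted p = 0.00046) and 1.92 (adjusted p = 0.00365) by edgeR. With total counts the fat pad over the muscle turned to 0.40. In the authors' TPM columns Gatm had 13.8 and 16.5 TPM in the fat pad, 106 and 124 TPM in the tendon and 27.9 and 21.4 TPM in the muscle, without overlap. There limma called all 3 comparisons, at -0.65 for the fat pad over the muscle (adjusted p = 0.0226), -2.84 for the fat pad over the tendon (adjusted p = 5.23e-06) and 2.19 for the tendon over the muscle (adjusted p = 0.000543).

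Beside the spread of Gatm, the 5 Schwann cell markers, all counted in each library, summed to 69.6 and 101 CPM in the fat pad, 1045 and 66.3 CPM in the tendon and 133 and 170 CPM in the muscle. In counts, all 5 were higher in tendon library 1, as were all 9 adipocyte markers. In the authors' TPM columns the tendon had no such gap. There the Schwann cell markers summed to 597 and 663 TPM and the adipocyte markers to 6930 and 6948 TPM. The part of Schwann cell or adipocyte RNA in the Gatm values was not tested.

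**Figure D3:**
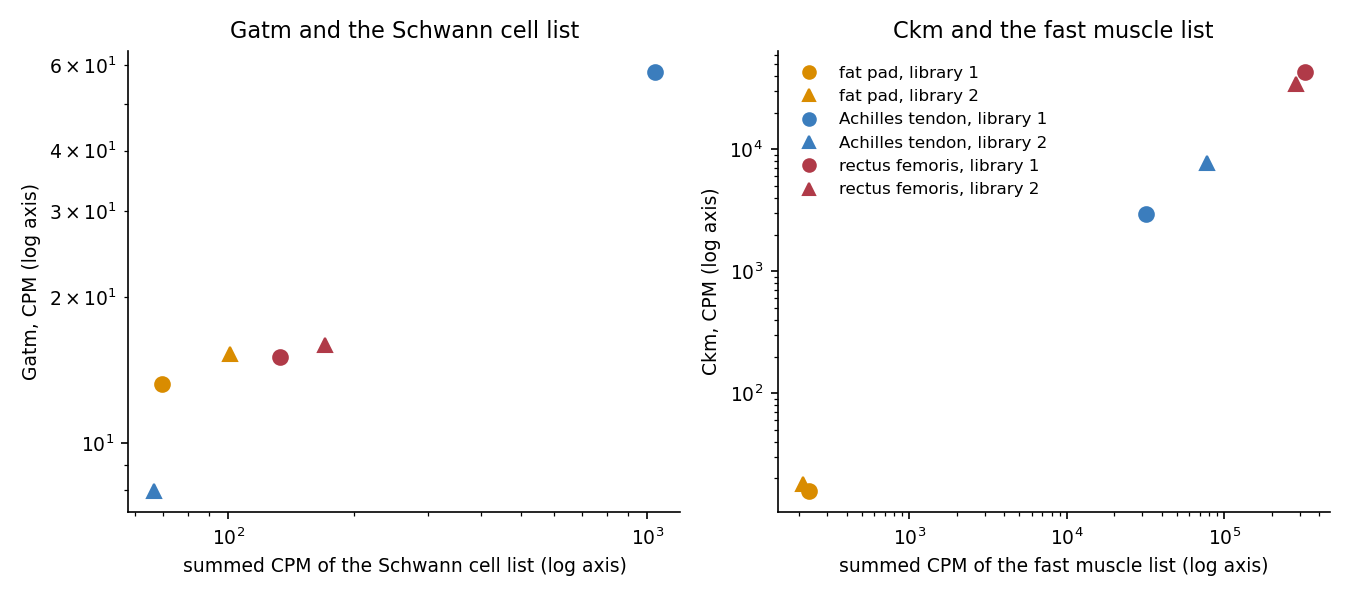
Gatm against the summed Schwann cell markers (left) and Ckm against the summed fast muscle markers (right), in CPM on log axes, with 1 point per library. Tendon library 1 stands apart in the left panel at 58.2 CPM of Gatm and 1045 CPM of markers, and in the right panel the libraries lie in the order fat pad, tendon, muscle on both axes.

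Gamt, which methylates guanidinoacetate to creatine, had 14.9 and 24.3 CPM in the fat pad, 6.13 and 8.27 CPM in the tendon and 31.9 and 20.7 CPM in the muscle. The tendon libraries were the lowest, and the fat pad and muscle libraries overlapped. Gamt passed the test for the fat pad over the tendon, with a log2 fold change of 1.44 ± 0.34 (adjusted p = 0.0093), and for the tendon over the muscle, with -1.87 ± 0.34 (adjusted p = 0.014), by edgeR. The fat pad over the muscle had -0.43 ± 0.33 (adjusted p = 0.298 by edgeR), which turned to 0.095 with total counts. In the TPM columns both calls were lost, at 0.37 (adjusted p = 0.297 by limma) for the fat pad over the tendon and -0.51 (adjusted p = 0.204 by limma) for the tendon over the muscle. Without fat pad library 2 the fat pad over the tendon had 1.04 (adjusted p = 0.0543 by edgeR).

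Of the AMP deaminases, the muscle form was the lowest per kilobase in the fat pad and the highest in the tendon and muscle. Ampd2 and Ampd3 were not called between the fat pad and the muscle. Ampd1, the deaminase of skeletal muscle, had 0.951 and 1.08 CPM in the fat pad, 104 and 292 CPM in the tendon and 2011 and 2077 CPM in the muscle. No tissue overlapped another. The fat pad had 86 and 121 counts, and the log2 fold change was -10.97 ± 0.71 for the fat pad over the muscle (adjusted p = 5.58e-05) and -7.61 ± 0.62 for the fat pad over the tendon (adjusted p = 0.000123), by edgeR. The tendon over the muscle had -3.37 ± 0.50 (adjusted p = 0.00921 by edgeR). Ampd1 made up 3.55% and 5.99% of the summed AMP deaminase level per kilobase in the fat pad, 65.0% and 88.7% in the tendon, and 99.0% and 98.9% in the muscle. With lengths from the ratio of counts to TPM it was 5.26% and 8.64% in the fat pad and 72.4% and 92.0% in the tendon.

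Ampd2, the form known from liver and many other tissues, had 20.4 and 12.4 CPM in the fat pad, 28.5 and 26.7 CPM in the tendon and 12.0 and 13.7 CPM in the muscle. The tendon libraries were the highest, and the fat pad libraries spanned the muscle ones. The tendon over the muscle had a log2 fold change of 1.10 ± 0.27 (adjusted p = 0.0302) and the fat pad over the tendon -0.75 ± 0.27 (adjusted p = 0.0492), by edgeR. The call for the fat pad over the tendon was lost with DESeq2 size factors (-0.65, adjusted p = 0.0668 by edgeR) and with DESeq2 itself (-0.65, adjusted p = 0.0593), and by edgeR without any 1 of 5 libraries, all but fat pad library 1. The call for the tendon over the muscle was lost without tendon library 1 (1.04, adjusted p = 0.0920 by edgeR). For the fat pad over the muscle the value was 0.35 ± 0.27 (adjusted p = 0.293 by edgeR), and scaling by total counts gave 0.87 (adjusted p = 0.0383 by edgeR).

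Ampd3, the form of red blood cells that muscle and other tissues also make, had 19.0 and 13.5 CPM in the fat pad, 58.2 and 30.5 CPM in the tendon and 17.8 and 21.2 CPM in the muscle. Both tendon libraries were above all others, and the fat pad and muscle libraries overlapped. Ampd3 was lower in fat pad than in tendon, by a log2 fold change of -1.45 ± 0.34 (adjusted p = 0.00942), and higher in tendon than in muscle, by 1.18 ± 0.34 (adjusted p = 0.0446), by edgeR. The call for the tendon over the muscle was lost without tendon library 1 (0.63, adjusted p = 0.206 by edgeR) and without either fat pad library (adjusted p = 0.0560 and 0.0573 by edgeR), and the one for the fat pad over the tendon without fat pad library 2 (-1.23, adjusted p = 0.0637 by edgeR). The fat pad over the muscle had -0.27 ± 0.34 (adjusted p = 0.514 by edgeR), and total counts turned it to 0.25. The erythroid markers, 6 of 7 of them listed in all tissues, summed to 35194 and 11127 CPM in the fat pad, 232 and 79.9 CPM in the tendon and 335 and 313 CPM in the muscle. Slc4a1, the anion exchanger of red cells, was at 0 counts in tendon library 2 and muscle library 2. The part of red cell RNA in the Ampd3 values was not tested. Overlapping genes share 8.42% and 8.31% of the exonic bases of Ampd3 and Ampd2, and 1 of those at Ampd3 is on the same strand. An antisense gene shares 5.65% of the exonic bases of Ckmt2.

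Ak1, the cytosolic adenylate kinase of muscle, brain and red cells, had 70.5 and 65.9 CPM in the fat pad, 287 and 557 CPM in the tendon and 2058 and 1828 CPM in the muscle. The tissues did not overlap. The log2 fold change was -4.83 ± 0.41 for the fat pad over the muscle (adjusted p = 0.000117), -2.63 ± 0.38 for the fat pad over the tendon (adjusted p = 0.00104) and -2.20 ± 0.37 for the tendon over the muscle (adjusted p = 0.0117), by edgeR. Among the 10 genes Ak1 had a rank per kilobase of 2 in the fat pad and of 3 in the tendon and the muscle, or of 4 in the muscle with TPM.

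In the fat pad over the muscle, 1 of the 10 genes was called higher (Ckb) and 5 were called lower (Ckm, Ckmt2, Slc6a8, Ampd1 and Ak1), where 59.4% of all 15856 genes tested were called, 29.8% higher and 29.6% lower. The 6 of 10 is near that background, and the median log2 fold change was -2.63 over the 10 genes and 0.14 over all genes tested. In the fat pad over the tendon, 1 was called higher (Gamt) and 7 lower (Ckm, Ckmt2, Slc6a8, Ampd1, Ampd2, Ampd3 and Ak1), against 58.5% of all genes, 27.2% higher and 31.4% lower, with a median of -2.04 over the 10 and -0.011 over all genes. In the tendon over the muscle, 3 were called higher (Ckb, Ampd2 and Ampd3) and 4 lower (Ckm, Gamt, Ampd1 and Ak1), against 26% of all genes, 13.3% higher and 12.7% lower, with medians of -0.68 and 0.10. The libraries did not overlap for 6, 8 and 9 of the 10 genes in the 3 comparisons in that order, and for 83.4%, 81.5% and 70.1% of all genes tested. The comparisons share libraries, so their counts are not independent.

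The edgeR calls for the tendon over the muscle rested on both muscle libraries. Without muscle library 1, and likewise without muscle library 2, edgeR called none of the 10 genes and few genes over all. DESeq2 on the same libraries still called some of the 10 and many genes over all. Each of these fits leaves the muscle with 1 library, so the loss in edgeR was not read as a lack of difference. The 10 genes kept the sign of their log2 fold change in both edgeR fits. In the fat pad over the tendon, 5 of the 10 were called without fat pad library 2.

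All fold changes depend on the scaling, here TMM. Total counts in its place moved the median gene by 0.51 for the fat pad over the muscle, -0.21 for the fat pad over the tendon and 0.73 for the tendon over the muscle on the log2 scale. The calls over all genes were then 6350 higher and 3420 lower, 3671 and 5449, and 5969 and 398, in the same order of comparisons. With TMM they were 4728 and 4698, 4308 and 4972, and 2110 and 2017. In the TPM columns they were 3030 and 5790, 1608 and 7921, and 4504 and 540 of 13647 genes.

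**Figure D4:**
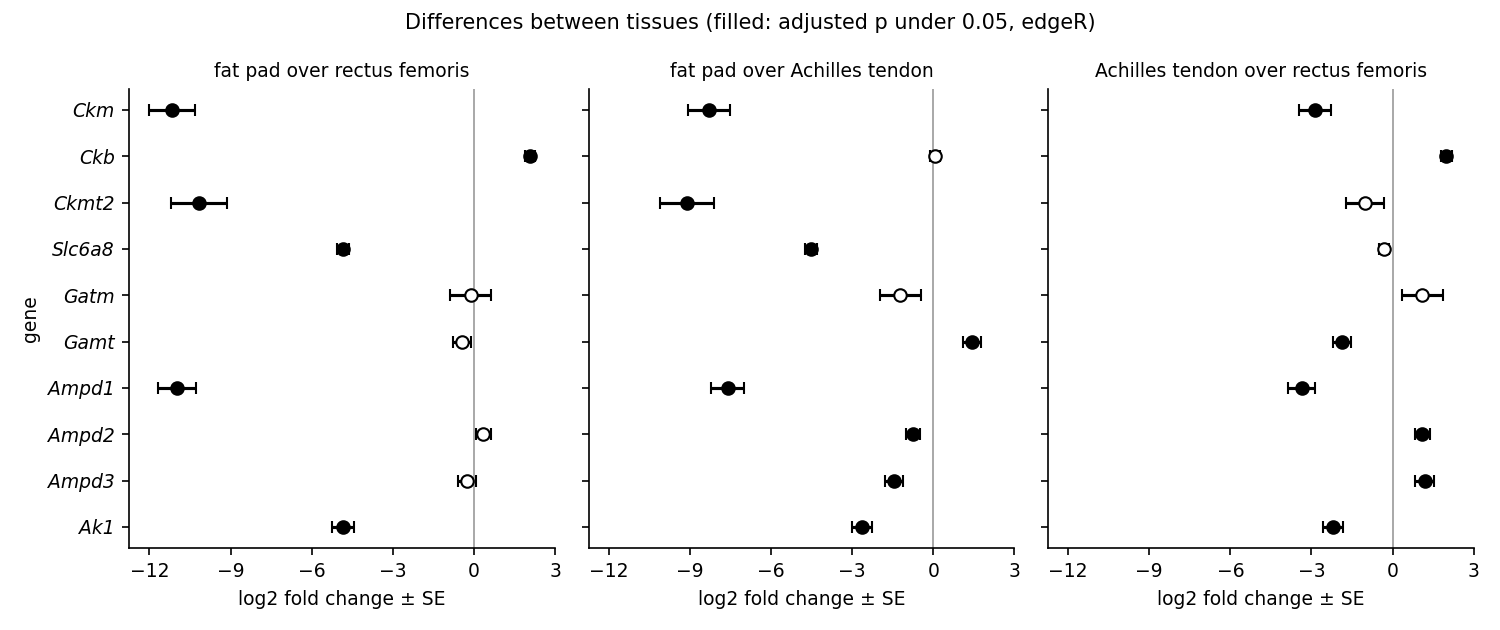
Log2 fold change ± SE of the 10 genes in the 3 comparisons (n = 2 libraries per tissue), with filled points for an adjusted p under 0.05 by edgeR. Ckm, Ckmt2 and Ampd1 lie at -7.61 or below in both fat pad comparisons, while Gatm has open points in all 3.

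By the count columns, the tendon libraries carried muscle transcripts to different degrees, and the 10 genes did not all move with them alike. The 11 fast muscle markers, all counted in each library, summed to 31649 and 77105 CPM in the tendon and 323267 and 286258 CPM in the muscle, and the 8 slow ones to 15529 and 8643 CPM in the tendon and 1373 and 1755 CPM in the muscle. In the tendon the fast markers were thus at 10.4% and 25.3% of the muscle mean and the slow ones at 993% and 553%. Ckm was at 7.61% and 19.9% of the muscle mean, Ampd1 at 5.10% and 14.3% and Ak1 at 14.8% and 28.7%, all higher in tendon library 2, as were 10 of the 11 fast markers. The exception was Myh2, with 6177 and 3145 CPM in the tendon. Ckmt2 was at 56.0% and 41.8% and Slc6a8 at 82.5% and 77.8%, both higher in tendon library 1, as all 8 slow markers were, though Slc6a8 by only 1.06-fold. Of the others, Gamt (23.3% and 31.4%) was higher in library 2, and Ampd3 (298% and 156%), Ckb (410% and 386%), Ampd2 and Gatm were higher in library 1. In the authors' TPM columns the tendon fast markers summed to 113595 and 75773 and the slow ones to 25480 and 21986. Ak1 had 482 and 341 TPM, Ckmt2 4861 and 3704 and Slc6a8 63.7 and 49.4. There both sums and these genes, with Ckm and Ampd1, were higher in library 1, while Ckb, Ampd2 and Gatm were higher in library 2. The split by library thus rests on the count columns.

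Per 1000 counts of both muscle lists together, Ak1 had 6.09 and 6.49 in the tendon and 6.34 and 6.35 in the muscle. Ckm had 62.8 and 90.1 in the tendon and 134 and 120 in the muscle, and Ampd1 had 2.21 and 3.40 in the tendon and 6.19 and 7.21 in the muscle. On this scale both genes remained lower in the tendon. Ckmt2 had 13.7 and 5.61 in the tendon and 3.27 and 4.31 in the muscle, and Slc6a8 3.09 and 1.61 in the tendon and 0.593 and 0.560 in the muscle, so that both tendon libraries lay above the muscle. Within the tendon, library 2 over library 1 was 2.61 for Ckm (95% interval, for counting error only, 2.60 to 2.62), 2.80 for Ampd1 (2.73 to 2.88) and 1.94 for Ak1 (1.91 to 1.97), and 0.746 for Ckmt2 (0.736 to 0.756). The part of muscle RNA in the tendon values was not tested.

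**Figure D5:**
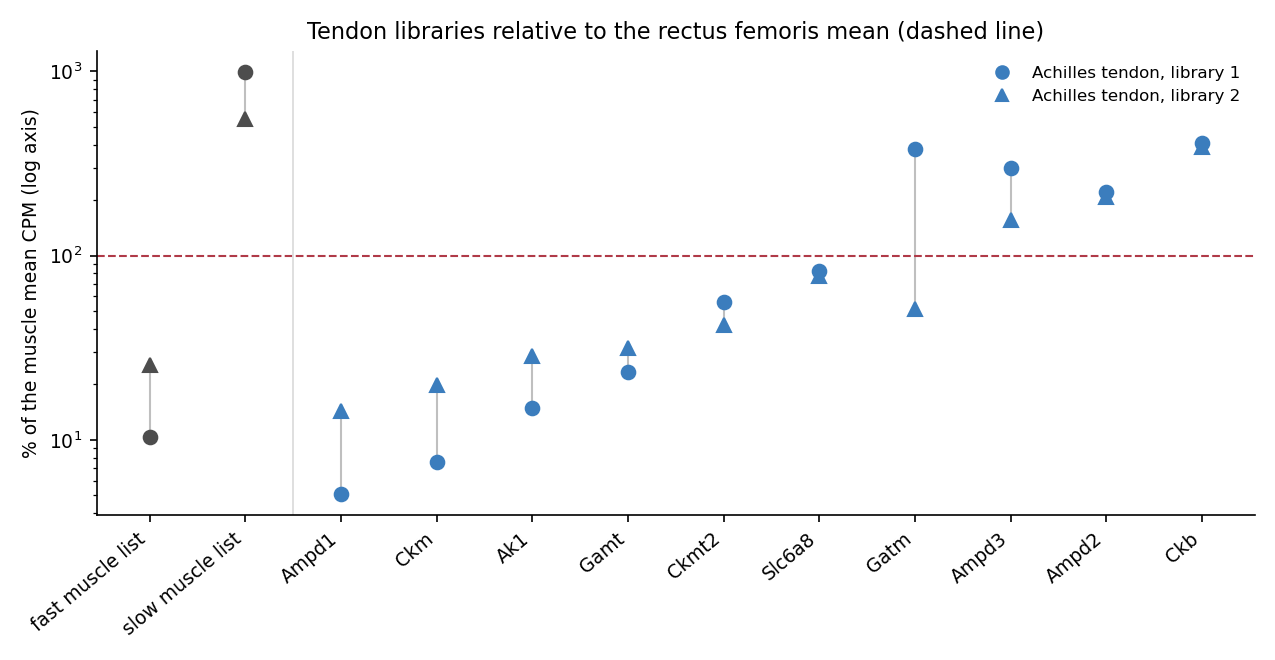
CPM of the 2 muscle marker lists (grey) and of the 10 genes (blue) in each tendon library as a percentage of the mean of the 2 muscle libraries, on a log axis, with the muscle mean at the dashed line. Ampd1, Ckm, Ak1 and Gamt are higher in library 2 (triangle), as is the sum of the fast muscle list, and the other 6 genes are higher in library 1 (circle), as is the sum of the slow muscle list.

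The order of levels per kilobase differed by tissue. In the fat pad it was Ckb (32.9 CPM per kilobase), Ak1 (26.3), Gamt (13.6), Ckm (5.81), Gatm (4.75), Ampd2 (3.14), Ampd3 (2.88), Slc6a8 (1.19), Ckmt2 (0.674) and Ampd1 (0.286). Among neighbours there, Ampd2 and Ampd3, Slc6a8 and Ckmt2, and Ckmt2 and Ampd1 overlapped. In the tendon it was Ckm (1835 CPM per kilobase), Ckmt2 (379), Ak1 (163), Ampd1 (55.8), Ckb (31.3), Slc6a8 (27.2), Gatm (11.0), Ampd3 (7.88), Ampd2 (5.28) and Gamt (4.99), with overlap between Ampd1 and Ckb and among the last 4. In the muscle it was Ckm (13363 CPM per kilobase), Ckmt2 (775), Ak1 (749), Ampd1 (576), Slc6a8 (34.0), Gamt (18.2), Ckb (7.87), Gatm (5.15), Ampd3 (3.47) and Ampd2 (2.46), with overlap between Ckmt2 and Ak1. Exon lengths come from an annotation of another build, and with lengths taken from the ratio of counts to TPM in the fat pad some close neighbours changed places, such as Ak1 and Ampd1 in the muscle.

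Library numbers in the tendon and the muscle rest on the count columns. Across genes, the log2 ratio of library 2 to library 1 had a correlation of 1 between counts and TPM in the fat pad (12618 genes), -0.239 in the tendon (12407 genes) and -0.231 in the muscle (11380 genes). In TPM, Ckm was at 10047 and 6149 in the tendon and at 26481 and 32693 in the muscle, so the higher library differed from that in counts in both tissues. Ampd1 was at 280 and 165 TPM in the tendon, again with library 1 above library 2. The authors' deposited table gave Ckm a log2 fold change of library 1 over library 2 of 0.95 in the tendon and -0.53 in the muscle. In the 3 tissues the lowest adjusted p that the authors' deposited tables gave to any of the 10 genes was 0.228, for Ckmt2 in the fat pad.

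The rest of the pathway was followed in 65 further genes, of which 62 were tested, in counts by the main edgeR fit only. In the fat pad over the muscle 22 were called higher and 25 lower, in the fat pad over the tendon 14 and 19, and in the tendon over the muscle 8 and 17. That is 75.8%, 53.2% and 40.3% of the 62, against 59.4%, 58.5% and 26% of all genes tested. Their median log2 fold changes were 0.33, -0.021 and -0.20, against 0.14, -0.011 and 0.10 over all genes tested, and holding the 3 genes with 0 counts in both muscle libraries (Ak9, Nt5c1b and Entpd3) at a limit of 3 counts per library gave 0.33, -0.021 and -0.24. These 3 genes were among the 22 called higher in the fat pad over the muscle, from 102 counts or fewer in each fat pad library. They passed the filter on low counts without the muscle libraries.

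In the purine nucleotide cycle, Adssl1, the muscle adenylosuccinate synthase that follows Ampd1, had 16.5 and 18.6 CPM in the fat pad, 314 and 597 CPM in the tendon and 1764 and 1499 CPM in the muscle. Like Ampd1, it did not overlap between tissues, with log2 fold changes of -6.54 ± 0.44 for the fat pad over the muscle, -4.70 ± 0.41 for the fat pad over the tendon and -1.84 ± 0.36 for the tendon over the muscle (adjusted p = 6.14e-05, 0.00015 and 0.0162 by edgeR). Adsl, which releases AMP and fumarate in the same cycle, had -2.06 ± 0.21, -0.72 ± 0.20 and -1.34 ± 0.20 in the same order (adjusted p = 0.000221, 0.0197 and 0.00958 by edgeR). In the authors' TPM columns Adsl had 55.2 and 43.7 TPM in the tendon and 56.3 and 56.8 TPM in the muscle, a much smaller gap. Adssl1 had 924 and 665 TPM in the tendon and 1506 and 1496 TPM in the muscle. Adss, the other adenylosuccinate synthase, was called in none of the 3, at 0.46, 0.30 and 0.16.

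Of 7 other adenylate kinases tested, 3 were called higher and 1 lower in the fat pad over the muscle, 57.1% of them, near the 59.4% of all genes. Ak9, at 0 counts in the muscle, was among the 3. Ak4, a kinase of the mitochondrial matrix, had a log2 fold change of -3.98 ± 0.52 in that comparison (adjusted p = 0.000699 by edgeR). In the exchange of adenine nucleotides across the mitochondrial membranes, all 6 genes were called in the fat pad over the muscle, 5 lower and 1 higher, where 59.4% of all genes were called. Slc25a4, the ADP/ATP carrier of heart and muscle, had -3.56 ± 0.35, and Slc25a5, the carrier of many other tissues, 4.32 ± 0.37 (adjusted p = 0.000201 and 0.000118 by edgeR). Vdac1, a channel of the outer membrane, had -4.37 ± 0.32 (adjusted p = 6.96e-05 by edgeR).

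Of 8 genes, the subunits of the AMP-activated kinase, which AMP switches on, and its upstream kinase Stk11, 1 was called higher and 5 lower in the fat pad over the muscle, and 2 higher and 5 lower over the tendon. The shares called were 75% and 87.5%, against 59.4% and 58.5% of all genes. The subunits Prkaa2, Prkab2 and Prkag3 had log2 fold changes of -5.82 ± 0.53, -5.74 ± 0.78 and -8.21 ± 1.46 for the fat pad over the muscle (adjusted p = 0.000143, 0.000788 and 0.00273 by edgeR). Prkaa1, the other catalytic subunit, had 0.44 ± 0.20 and was not called (adjusted p = 0.0927 by edgeR). Prkag3 had 3.70 CPM in tendon library 1 and 71.8 CPM in tendon library 2, a wider gap than that of Ckm.

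Of 10 purine synthesis genes, 2 were called higher and 6 lower in the fat pad over the muscle, 80% against 59.4% of all genes. Prps1, which makes the sugar phosphate that starts the pathway, had 1.83 ± 0.20, and Atic, which closes the ring to IMP, -3.15 ± 0.28 (adjusted p = 0.000273 and 0.00013 by edgeR). Of 5 salvage genes, Hprt, Adk and Dguok were called higher in both fat pad comparisons, 60% of the list, against 59.4% and 58.5% of all genes called in either direction. Hprt, which returns hypoxanthine and guanine to nucleotides, had 1.79 ± 0.16 over the muscle and 1.76 ± 0.16 over the tendon (adjusted p = 0.000141 and 0.000182 by edgeR). Of 12 breakdown genes 7 were called higher and 3 lower in the fat pad over the muscle, 83.3% against the same 59.4%. Nt5c1b, at 0 counts in the muscle, was among the 7. Pnp, which splits inosine and guanosine, had 2.38 ± 0.18 (adjusted p = 8.27e-05 by edgeR), and Nt5c1a, the cytosolic AMP nucleotidase of muscle, had 0.0996 CPM or less in the fat pad, against 10.8 and 13.1 CPM in the muscle. Of 9 genes of extracellular nucleotides 5 were called higher and 2 lower in the fat pad over the muscle, 77.8% against 59.4%. Entpd3, at 0 counts in the muscle, was among the 5. Ank, a membrane protein that raises pyrophosphate outside cells, had -3.45 ± 0.24 (adjusted p = 6.34e-05 by edgeR).

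The genes whose profile over the 6 libraries lay closest to Ckm, by the root mean square difference of log2(CPM + 1) centred on each gene's mean, were Myom2 (0.364), a protein of the sarcomere's M-band, Tnnt3 (0.516), the fast troponin T, and Pygm (0.528), the muscle glycogen phosphorylase. Those closest to Ckb were Trim47 (0.132), Pxdc1 (0.161) and Plvap (0.174), and those closest to Ampd3 were Ptpdc1 (0.0538), Mrgprf (0.106) and Lyst (0.111). The search covered 10517 genes with at least 10 CPM in at least 2 libraries. With 6 libraries in 3 tissues many genes have similar profiles, and the distances are descriptions without a test.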

How the data were processed

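RNA-seq of 6 mouse libraries, 2 per tissue, was used. Per the submitters' processing notes, Bowtie2, RSEM 1.3.1, DESeq2 1.4.5 and the build GRCm39 were used, with no role named. How reads were counted, on which strand and against which annotation is not given in the sources used here. The authors deposited, per tissue, whole-number read counts per gene, not normalized, and, per the file headers, a table of TPM (scaled by transcript length and library size) with their log2 fold change between its libraries, a p-value, its −log10 form and an adjusted p-value. In the tendon and muscle the TPM columns did not follow the counts, so counts were the main values. Per-sample columns left unused numbered 0.

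Groups follow the treatment label. Of 20672 genes, the 16964 in all 3 count tables entered edgeR 4.0.16 in R 4.3.3 (TMM, filterByExpr, 1 term per tissue, quasi-likelihood test, Benjamini-Hochberg over 15856 genes, threshold 0.05, biological coefficient of variation 0.336). SE is the log2 fold change over the square root of F. Alternatives were DESeq2 1.42.0 and its size factors, total counts, no filter, a fit of only the tissues compared, limma 3.58.1 on log2(TPM + 1) and log2(TPM + 0.1) for genes at 1 TPM in at least 2 libraries, a block for library number, and each library left out. The edgeR script was tested on simulated data.

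The 10 genes and all lists were chosen with earlier results of these data known. Named pathway genes were those called with at least 2-fold in 2 or more comparisons, plus the 2 with the largest absolute change per list; nearest profiles were sought for Ckm, Ckb and Ampd3. Ak3 and the other pathway genes not named stand only in counts. Adss, Adsl, Prkaa1, Ak9, Nt5c1b and Entpd3, where outside that rule, and single marker genes were named after their values were seen. Some genes that the rule names are not reported here. Exon lengths and overlaps come from GENCODE M21 on GRCm38, whose coordinates were not used.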

Additional observations from a re-analysis of the deposited data

How the results depend on the processing

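Of the 140 values per comparison recomputed under the alternatives for the 10 genes, 127 kept direction and side of the threshold for the fat pad over the muscle, 119 for the fat pad over the tendon and 109 for the tendon over the muscle. Values whose sign turned were, by setting and as log2 fold changes, the following, and the cause was not tested. With total counts, Ampd3 (0.25), Gamt (0.095) and Gatm (0.40) turned for the fat pad over the muscle, Ckb (-0.14) for the fat pad over the tendon and Slc6a8 (0.42) for the tendon over the muscle. In log2(TPM + 1) and log2(TPM + 0.1), Ampd2 (-0.11 and -0.15) turned for the fat pad over the muscle, Ckb (-0.75 in both, called by limma) for the fat pad over the tendon, and Ckmt2 (0.64 in both) and Slc6a8 (0.31 and 0.32) for the tendon over the muscle. With each library left out in turn, Ampd2 ranged from -0.018 (without fat pad library 1) to 0.67 and Gatm from -0.23 to 0.020 (without fat pad library 1) for the fat pad over the muscle, and Ckb from -0.040 (without fat pad library 2) to 0.23 for the fat pad over the tendon. Gatm ranged from -2.04 to 0.89 (without tendon library 1) for the fat pad over the tendon and from -0.97 (without tendon library 1) to 1.92 for the tendon over the muscle. None of the values that turned was called in the main comparison.

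With a library left out, 6 to 7 of the 10 genes were called for the fat pad over the muscle (6892 to 9671 genes in all), 5 to 8 for the fat pad over the tendon (7825 to 8539) and 0 to 8 for the tendon over the muscle (19 to 4380, with 1816 without tendon library 1). These counts are from edgeR, and without either muscle library DESeq2 called many more genes for the tendon over the muscle. A tissue left with 1 library is assumed to vary like the others. With total counts 6367 genes were called for the tendon over the muscle, against 4127. Deviations of same-numbered libraries correlated at 0.0193 for fat pad and tendon, -0.0349 for fat pad and muscle and -0.297 for tendon and muscle. With 2 libraries per tissue, swapping the numbers in 1 tissue only turns the sign. These values therefore cannot tell whether samples are paired. With the replicate block 8649, 8650 and 2759 genes were called, and 6, 7 and 6 of the 10, in the order fat pad over muscle, fat pad over tendon and tendon over muscle. The block ended the calls of Ampd2 for the fat pad over the tendon (adjusted p = 0.0601 by edgeR) and Ampd3 for the tendon over the muscle (adjusted p = 0.0608 by edgeR). Fitting only the tissues compared ended the same calls (adjusted p = 0.0743 and 0.0501 by edgeR).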

Other observations

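The nearest profiles of genes outside the rule for named genes were read after their values were seen and carry no test. Among the nearest to Gatm was Scn7a, a sodium channel protein of peripheral nerve, at a root mean square difference of 0.266. Scn7a had 12.2 and 14.5 CPM in the fat pad, 69.5 and 12.1 CPM in the tendon and 14.1 and 21.9 CPM in the muscle. Ckmt2 lay nearest to Myot, which encodes the Z-disc protein myotilin (0.383), and Ampd1 to Mylpf, the fast regulatory myosin light chain (0.281). Gamt lay nearest to Lsm6, a protein of RNA processing (0.117), and Ampd2 to Hk1, a hexokinase (0.0911). Ak1 lay nearest to Hook1 (0.158) and Slc6a8 to Chmp4b (0.158).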
